A study of Mus musculus with 9 samples.

Results

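The contactins and the contactin-associated proteins are 2 families of neuronal adhesion genes, and 10 of their members were followed here through 3 lines of labelled cortical interneurons. Contactins are cell surface proteins with immunoglobulin and fibronectin domains that are held to the membrane by a lipid anchor. Contactin-associated proteins (Caspr proteins) are transmembrane relatives of the neurexins, and the best known of them bind contactins: Caspr with contactin 1 at the paranodes beside the nodes of Ranvier, and Caspr2 with contactin 2 where potassium channels of the Kv1 type cluster along the axon. The genes are Cntnap1, Cntnap2, Cntnap3, Cntnap4, Cntnap5a, Cntnap5b, Cntn1, Cntn3, Cntn4 and Cntn5, all found by symbol among the 23319 gene symbols counted. They were selected on measured values, the read counts of Cntnap3, which were high in both lines of medial ganglionic eminence (MGE) origin and near 0 in the VIP line. The levels of Cntnap3 against VIP are therefore a description here, with no test.

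RNA was counted in 9 libraries of 150 green fluorescent cells each, taken by hand from mouse pups at postnatal day 5, in layer 2/3 of the anterior cingulate and medial prefrontal cortex. For the Nkx2.1 libraries (n = 3) the genotype was Nkx2.1-CreER;Ai47, with tamoxifen at embryonic day 17. Chandelier cells, the interneurons that this timing is meant to mark, synapse on the initial segment of pyramidal cell axons. The SOM libraries (n = 3) came from SOM-Cre;Ai47 mice, whose Cre follows the somatostatin gene, and the VIP libraries (n = 3) from VIP-Cre;Ai47 mice, whose Cre follows the gene of vasoactive intestinal peptide. All 3 groups carry the fluorescent Cre reporter Ai47, and of the 3 groups tamoxifen is given for the Nkx2.1 libraries alone, so line and tamoxifen cannot be told apart. Whether the 3 libraries of a line stem from different animals is not stated. The p-values therefore weigh a group difference only against the spread between these libraries, which may be technical.

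Depth and identity were read first. Reads in genes numbered 6484488 to 12465997 per library, and the limit that 0 reads allow, set at 3 reads, lay between 0.246 and 0.444 CPM (read counts scaled to library size). Sst stood at 1734 ± 379 CPM in SOM libraries (SD, n = 3 here and below) and Vip at 634 ± 201 CPM in VIP libraries, and in the libraries of the other lines they reached at most 36.1 and 3.52 CPM. Lhx6, a transcription factor of MGE interneurons, was at 1444 ± 489, 739.5 ± 118 and 0.0818 ± 0.142 CPM in the libraries of the Nkx2.1, SOM and VIP lines. The 5 MGE markers, Lhx6 among them, summed to 2059 to 3888, 2442 to 3041 and 48.9 to 173 CPM in the 3 groups. Satb1 of that list averaged less in Nkx2.1 than in VIP libraries (40.5, 471 and 74.6 CPM). The 5 markers of interneurons from the caudal ganglionic eminence summed to 0 to 2.15, 145 to 356 and 1081 to 1468 CPM. Of 4 tested genes of that list, 4 were fitted lower in Nkx2.1 than in SOM libraries, and 4 lower in each of these than in VIP libraries. The 7 GABAergic markers summed to 2256 to 3834, 2316 to 2636 and 2707 to 3222 CPM. Slc32a1 (4.53, 44.8 and 65.7 CPM) and Dlx6 (0.286, 5.32 and 29.3 CPM) were lower in every Nkx2.1 library than in all others. Dlx1 and Dlx2 were higher in every Nkx2.1 than SOM library. Nkx2-1 itself had a mean of 0.764 ± 0.644 CPM in the Nkx2.1 libraries. Markers of other cells were read too, and 8 astrocyte markers summed to 3563, 663 and 253 CPM in Nkx2.1 replicates 1 to 3, against 63.9 to 211 CPM in SOM and 262 to 412 CPM in VIP libraries, and none of the 8 was at 0 in Nkx2.1 replicate 1. The genes of this list differed. In Nkx2.1 replicate 1 Slc1a3 and Fabp7 held 1649 and 1240 CPM of the sum, and Gja1 1.14 CPM. Slc1a2 went the other way, at 215 to 372 CPM in VIP and 0.592 to 117 CPM in Nkx2.1 libraries. Of 5 tested genes of the list, 4 were fitted higher in Nkx2.1 than in VIP libraries. Oligodendrocyte lineage markers (8 genes) summed to 259 to 302, 99.97 to 264 and 1.72 to 111 CPM in the 3 groups and so were higher in each Nkx2.1 library than in each VIP library. Within that list Pdgfra, a marker of oligodendrocyte precursors, stood at 30.5 to 258 CPM in Nkx2.1, 0 to 37.9 in SOM and 0 to 3.30 CPM in VIP libraries (Nkx2.1 against VIP, edgeR adjusted p = 0.279; DESeq2 adjusted p = 0.00797). Cspg4 averaged 83.9 ± 98.0, 46.9 ± 40.8 and 0.0409 ± 0.0708 CPM and Sox10 9.14 ± 10.5, 0.46 ± 0.797 and 0.082 ± 0.142 CPM, while Olig2 was at 0 in every Nkx2.1 and VIP library. Mog went the other way, at 0.757 ± 1.31, 27.4 ± 37.0 and 5.40 ± 6.71 CPM, and Mbp averaged 50.6, 83.2 and 46.0 CPM. Of 5 tested genes of the list, 3 were fitted higher in Nkx2.1 than in SOM and 4 higher than in VIP libraries. The part of these cells in the results was not tested. Excitatory neuron markers (7 genes) summed to at most 116, 9.76 and 156 CPM. Of these Slc17a7 was at 0 in all Nkx2.1 libraries, whereas Neurod6 averaged 44.7, 0.419 and 46.0 CPM in the 3 groups.

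The promoter of Cntnap3 is printed because the 10 genes were chosen for the counts of this gene. The window runs from 250 bases before to 50 bases after the start site, at chr13:64903839-64904138 on the minus strand, from RefSeq on GRCm38.p6, and capitals mark matches to CAGCTG, an E-box of the kind bound by basic helix-loop-helix factors.
Cntnap3 promoter: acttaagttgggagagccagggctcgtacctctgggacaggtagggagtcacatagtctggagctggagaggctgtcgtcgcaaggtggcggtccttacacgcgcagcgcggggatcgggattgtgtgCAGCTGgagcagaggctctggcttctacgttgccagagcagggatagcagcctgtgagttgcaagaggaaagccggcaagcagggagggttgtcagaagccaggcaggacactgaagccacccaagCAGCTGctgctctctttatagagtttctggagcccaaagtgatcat
CAGCTG, which reads the same on both strands, began at bases 129 and 255 of the window, and 16.3% of the 32851 promoter windows of the table hold it. No match was found in this window to TAATTA, a homeodomain core present in 5.29% of windows, or to CTCAAG, a core of NKX2-1 sites present in 15.9%, on either strand. These matches are a description of the letters and not of binding. Of the 10 genes, 7 had a promoter entry in the table.

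The genes called Cntnap5a, Cntnap5b and Cntnap5c are close copies, and their shared letters are printed because levels of these genes rest on reads that tell them apart. Coding sequences of Cntnap5a and Cntnap5b were 89.7% identical over 3873 aligned bases (GENCODE M21, GRCm38), and those of Cntnap5a and Cntnap5c 90.3%. The next closest pair of the family, Cntnap3 and Cntnap4, was 69.5% identical, and no pair of contactins exceeded 66.5%. The longest run shared by Cntnap5a and Cntnap5b is in capitals, with 15 bases on either side, from coding bases 1498 to 1618 of both.
Cntnap5a: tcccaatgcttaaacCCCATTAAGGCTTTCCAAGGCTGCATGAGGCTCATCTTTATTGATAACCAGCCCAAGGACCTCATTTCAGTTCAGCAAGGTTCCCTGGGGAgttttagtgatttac
Cntnap5b: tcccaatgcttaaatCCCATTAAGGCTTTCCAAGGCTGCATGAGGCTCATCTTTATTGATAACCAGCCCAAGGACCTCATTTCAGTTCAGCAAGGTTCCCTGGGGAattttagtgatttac
The run holds 91 bases. Still, 0.964% of the 50-base words of Cntnap5a transcripts and 1.77% of those of Cntnap5b lay in a transcript of another gene, and 0% of those of Cntnap3 and Cntn4. The values of the 2 Cntnap5 genes are uncertain to the extent that the authors' counting split such reads. Exons of Cntnap4 and Cntn5 overlap an antisense gene over 8.01% and 6.4% of their bases, and those of Cntnap1 overlap Plekhh3 over 3.97%. The strand setting of the counting is not given in the sources used here, so such reads may not be separable.

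Cntnap3, on chromosome 13 (64736182 to 64903955, minus strand, GRCm38), encodes Caspr3, an adhesion protein of the central nervous system. It stood at 645, 783 and 282 CPM in Nkx2.1 replicates 1 to 3. In SOM replicates 1 to 3 it stood at 153, 235 and 217 CPM. The VIP libraries held 1 read in all, in replicate 1, and the 0 reads of replicates 2 and 3 allow up to 0.310 and 0.246 CPM. All 6 MGE libraries were above all 3 VIP libraries, which is the pattern the gene was chosen for. The ratio of pooled reads to VIP was 16851 for Nkx2.1 (95% interval 3024 to 665617) and 5942 for SOM (1066 to 234724). These intervals cover counting error only, and without molecular identifiers several reads may stem from 1 molecule. They rest on the counts for which the gene was chosen, so they describe those counts and are no test of a difference. In bulk samples fewer cells of a type and less RNA per cell cannot be told apart.

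Between the 2 MGE lines Cntnap3 averaged 570.2 ± 259 CPM in Nkx2.1 and 202 ± 43.0 CPM in SOM libraries. The choice did not use the difference between these lines, but it asked for high levels in both, so the same values entered it. Every Nkx2.1 library was above every SOM library, though Nkx2.1 replicate 3 (282 CPM) was near SOM replicate 2 (235 CPM). The difference, 2.83-fold (log2 1.499 ± 0.66 SE), did not pass the test (edgeR quasi-likelihood adjusted p = 0.435). Over the alternatives tried it ranged from log2 1.21 to 1.83, with adjusted p from 0.126 to 0.705. Its highest and lowest replicate lay 1.47 apart on the log2(CPM + 1) scale in the Nkx2.1 and 0.61 apart in the SOM libraries.

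**Figure D1:**
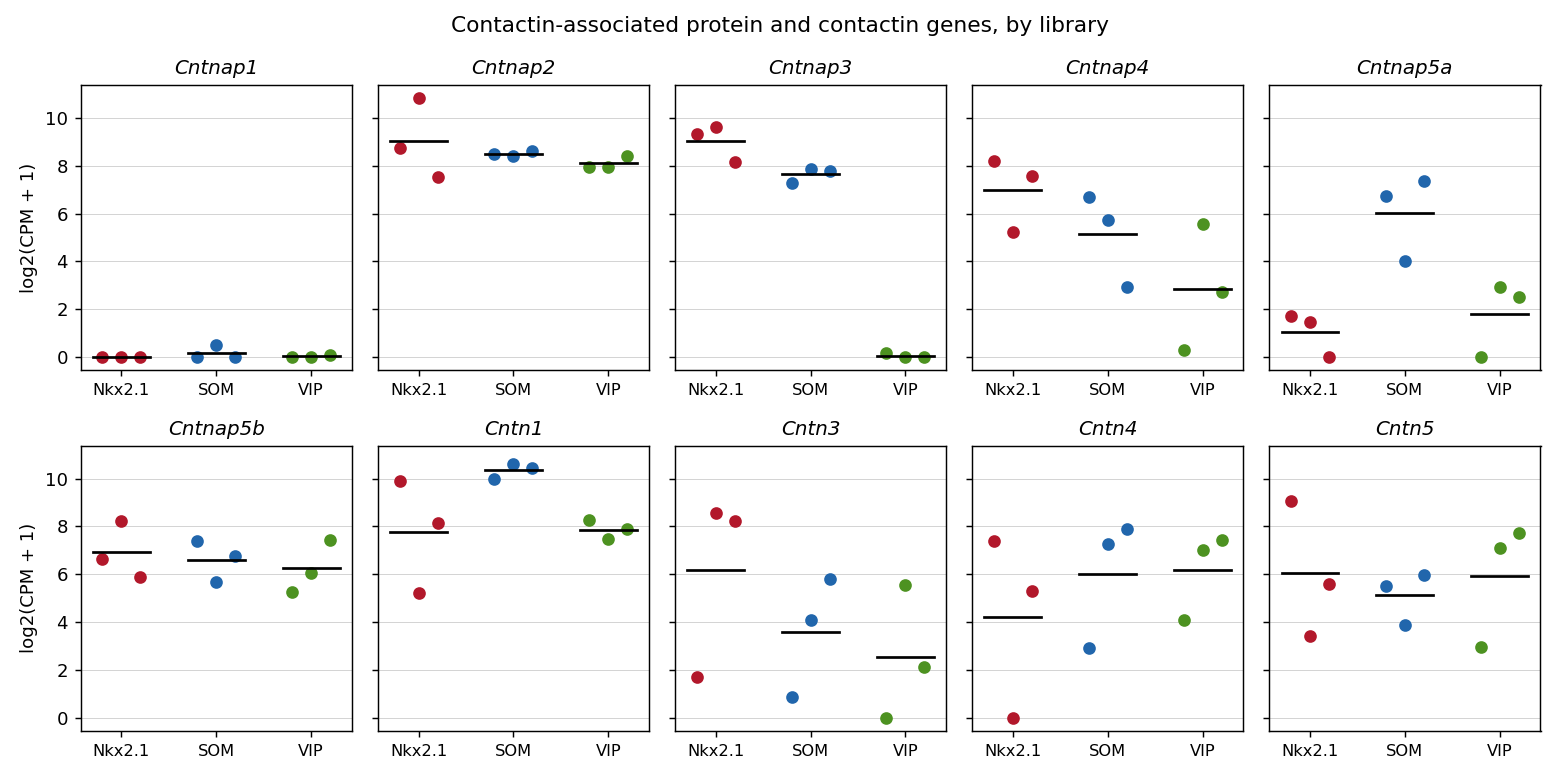
The 10 genes in each library, as log2(CPM + 1) on the vertical axis, with 3 points per line for replicates 1 to 3 from left to right and a bar at their mean. Cntnap3 is high in the 6 Nkx2.1 and SOM libraries and near 0 in the 3 VIP libraries, Cntn1 and Cntnap5a are highest in the SOM libraries, and Cntnap1 is near 0 throughout.

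For none of the other Caspr members were all MGE libraries above all VIP libraries. The order of the means, Nkx2.1, SOM and VIP, was nevertheless the same for Cntnap2, Cntnap4 and Cntnap5b. Cntnap2, on chromosome 6 (45059357 to 47304213, plus strand), encodes Caspr2, the partner of Kv1 channels, and had reads in all 9 libraries. Its levels were 424, 1819.8 and 185 CPM in Nkx2.1 replicates 1 to 3. They were 359, 337 and 393 CPM in the SOM and 247, 244 and 336 CPM in the VIP replicates. Nkx2.1 replicate 2 stood far above the other 8 libraries, and SOM and VIP did not overlap but lay next to each other. Nkx2.1 against SOM gave log2 1.16 ± 0.68 SE and SOM against VIP log2 0.40 ± 0.67 (edgeR adjusted p = 0.604 and 1.000). Nkx2.1 against VIP gave log2 1.55 ± 0.69 (edgeR adjusted p = 0.324). Without Nkx2.1 replicate 2 the first of these turned, to log2 -0.25.

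Cntnap4, on chromosome 8 (112570043 to 112882717, plus strand), encodes Caspr4, which has been tied to transmitter release at synapses of interneurons. It stood at 288, 37.0 and 189.7 CPM in the Nkx2.1 and 102, 52.4 and 6.75 CPM in the SOM replicates. In the VIP replicates it stood at 0.245, 46.0 and 5.66 CPM. The order of the means was Nkx2.1, SOM and VIP (172 ± 127, 53.8 ± 47.8 and 17.3 ± 25.0 CPM), and neighbours in that order overlapped. Against VIP, Nkx2.1 libraries differed by log2 3.31 ± 1.68 SE and SOM libraries by 1.64 ± 1.58 (edgeR adjusted p = 0.397 and 1.000). Between them the difference was log2 1.67 ± 1.58 (edgeR adjusted p = 0.85).

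Cntnap5a (chromosome 1, 115684756 to 116587323, plus strand) and Cntnap5b (chromosome 1, 99772765 to 100485942, plus strand) encode Caspr5 proteins, and they differed in pattern. In SOM replicates 1 to 3 Cntnap5a stood at 105, 15.1 and 165 CPM. It stood at 2.27, 1.78 and 0 CPM in the Nkx2.1 and 0, 6.71 and 4.67 CPM in the VIP replicates, where 0 reads allow up to 0.248 and 0.368 CPM. All 3 SOM libraries were above the other 6. The mean was 70.4-fold lower in Nkx2.1 than in SOM libraries (log2 -6.13 ± 2.46 SE) and 25.0-fold higher in SOM than in VIP libraries (log2 4.64 ± 2.29), and neither passed the test (edgeR adjusted p = 0.393 and 0.816). DESeq2 called the first of these (adjusted p = 0.017), and over all alternatives its adjusted p ranged from 0.017 to 0.629. Nkx2.1 against VIP gave log2 -1.49 ± 2.02 (edgeR adjusted p = 0.832).

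Cntnap5b, by contrast, was read in all 9 libraries. Its levels were 97.4, 301 and 58.3 CPM in the Nkx2.1, 167, 50.2 and 108 CPM in the SOM and 37.8, 65.7 and 171 CPM in the VIP replicates. The 3 groups overlapped fully, and Nkx2.1 replicate 2 was highest, as it was for Cntnap2. The fitted differences were log2 0.49 ± 0.91 SE for Nkx2.1 against SOM, 0.73 ± 0.91 for Nkx2.1 against VIP and 0.24 ± 0.91 for SOM against VIP (edgeR adjusted p = 0.969, 0.814 and 1.000). Their sign rested on single libraries: without Nkx2.1 replicate 2 the first 2 were log2 -0.47 and -0.23, and the third was -0.22 without SOM replicate 1 and -0.12 without VIP replicate 1.

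Cntnap1, on chromosome 11 (101170523 to 101190724, plus strand), encodes Caspr, the paranodal partner of contactin 1. It had 3 reads in SOM replicate 2, 1 read in VIP replicate 3 and 0 in the other 7 libraries, and it was the only one of the 10 genes that did not pass the filter on low counts. Over the 3 Nkx2.1 libraries together 0 reads allow up to 0.0917 CPM. Of the 10 nearest counted protein-coding genes on its strand 9 had at least 90 reads over the 9 libraries, and 1 had none.

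The first of the contactins, Cntn1 (chromosome 15, 92051165 to 92341967, plus strand), encodes contactin 1, the paranodal partner of Caspr and a ligand of several adhesion and phosphatase receptors. SOM replicates 1 to 3 held 1013, 1558 and 1384 CPM. Nkx2.1 replicates held 963, 36.0 and 281 CPM and VIP replicates 304, 176 and 236 CPM. All 3 SOM libraries were above the other 6, though Nkx2.1 replicate 1 (963 CPM) lay just below the lowest of them (1013 CPM). SOM libraries exceeded VIP libraries 5.53-fold (log2 2.47 ± 0.86 SE, edgeR adjusted p = 0.505), and Nkx2.1 libraries were 3.09-fold lower than SOM libraries (log2 -1.63 ± 0.83, edgeR adjusted p = 0.511). In a fit of the SOM and VIP libraries alone the first difference passed (log2 2.49, edgeR adjusted p = 0.0295), and over all alternatives its adjusted p ranged from 0.0295 to 0.887. Nkx2.1 against VIP gave log2 0.84 ± 0.82 (edgeR adjusted p = 0.744) and turned to log2 -0.57 without Nkx2.1 replicate 1, the library with the highest astrocyte marker sum (3563 CPM). The part of astrocytes in the levels of that library was not tested.

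Cntn3, on chromosome 6 (102162655 to 102573101, minus strand), encodes contactin 3. It stood at 2.27, 381 and 302 CPM in Nkx2.1 replicates 1 to 3. In the SOM replicates it was at 0.849, 16.3 and 55.6 CPM and in the VIP replicates at 0, 45.8 and 3.36 CPM, where 0 reads allow up to 0.368 CPM. Nkx2.1 replicates 2 and 3 were above all other libraries, and replicate 1 lay among the lowest. Nkx2.1 libraries differed from SOM libraries by log2 3.23 ± 2.22 SE and from VIP libraries by 3.80 ± 2.27 (edgeR adjusted p = 0.706 and 0.501). SOM against VIP gave log2 0.57 ± 2.04 (edgeR adjusted p = 1.000) and turned to log2 -0.94 without SOM replicate 3.

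Cntn4, on chromosome 6 (105677660 to 106699310, plus strand), encodes contactin 4, a partner of the amyloid precursor protein. Nkx2.1 replicates held 169, 0 and 38.0 CPM, and the 0 reads of replicate 2 allow up to 0.254 CPM. SOM replicates held 6.58, 155 and 237 CPM and VIP replicates 16.2, 127 and 172 CPM. The groups overlapped. Nkx2.1 against SOM gave log2 -0.94 ± 1.87 SE, Nkx2.1 against VIP gave log2 -0.61 ± 1.86, and for SOM against VIP it was 0.34 ± 1.85 (edgeR adjusted p = 0.972, 0.939 and 1.000). SOM against VIP turned from log2 0.34 to -0.38 without SOM replicate 3 and to -0.14 without VIP replicate 1.

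Cntn5, on chromosome 9 (9660891 to 10904775, minus strand), encodes contactin 5, also called NB-2. Nkx2.1 replicate 1 held 538 CPM, and replicates 2 and 3 held 9.82 and 47.8 CPM. SOM replicates held 44.5, 13.9 and 62.3 CPM and VIP replicates 6.75, 136 and 209 CPM. The groups overlapped in each comparison, and the Nkx2.1 mean (198 ± 294 CPM) rested on replicate 1, again the library with the highest astrocyte marker sum. Cntn1, Cntn4, Cntnap4 and Cntnap5a also had their highest Nkx2.1 values there, while Cntnap2, Cntnap3, Cntnap5b and Cntn3 were highest in replicate 2. The part of astrocytes in these levels was not tested. For Cntn5, Nkx2.1 against SOM gave log2 2.30 ± 1.49 SE and -0.48 without replicate 1. Nkx2.1 against VIP gave 0.76 ± 1.43 and -1.9999 without it (edgeR adjusted p = 0.665 and 0.892 with all libraries). SOM against VIP gave log2 -1.54 ± 1.45 (edgeR adjusted p = 1.000).

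Counted together, 0 of the 9 tested genes passed the test in Nkx2.1 against SOM, where 0.0932% of all genes tested did. The 9 include Cntnap3, whose high levels in both of these lines entered the choice. Leaving out Cntnap3, 0 of 8 passed in Nkx2.1 against VIP and likewise 0 of 8 in SOM against VIP, where 0.308% and 0.0746% of all genes did (edgeR). At an unadjusted p under 0.05 there were 2 in Nkx2.1 against SOM (Cntnap3 and Cntnap5a; 11.3% of all genes), 1 in Nkx2.1 against VIP (Cntnap2; 15.2%) and 1 in SOM against VIP (Cntn1; 6.99%). DESeq2 called 1, 0 and 0 of them, where it called 7.16%, 11.8% and 3.56% of all genes. In Nkx2.1 against SOM the groups did not overlap for 3 of 9 genes (19.9% of all genes): Cntnap3 was higher (5.9%), and Cntnap5a and Cntn1 were lower (14%). In Nkx2.1 against VIP the groups overlapped for each of the 8, where 20.1% of all genes did not overlap (7.31% higher and 12.8% lower). In SOM against VIP the groups did not overlap for 3 of 8 (19.9%), and Cntnap2, Cntnap5a and Cntn1 were all higher (10.9%), with none lower (9%). The fitted difference was above 0 for 6 of 9, 6 of 8 and 7 of 8 genes in the 3 comparisons, and for 49.7%, 50.1% and 49.9% of all genes. The median fitted difference was log2 1.16, 0.80 and 0.48 in the 3 comparisons, against -0.0075, 0.0028 and -0.0037 over all genes tested. Nkx2.1 and SOM were each compared with the same VIP libraries, so their differences from VIP are not independent.

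**Figure D2:**
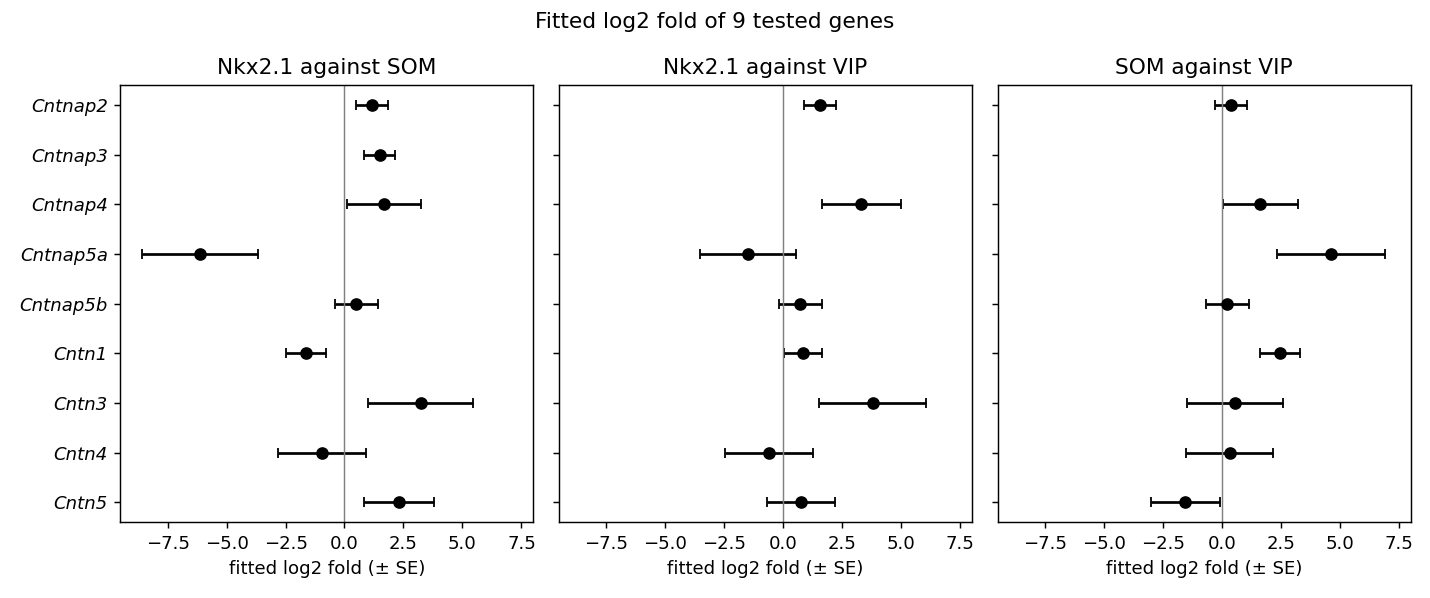
Fitted log2 fold of the 9 tested genes (horizontal axis, points) with its standard error (bars) in the 3 comparisons, with positive values for the line named first. Cntnap3 is left out of both comparisons with VIP because it was chosen for them. In the rest the widest bars belong to Cntnap5a and Cntn3, and no difference passed the test.

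The make-up of the 10 genes was compared per length, as CPM per kilobase of exon, since long transcripts collect more reads. On that scale Cntn1 led in all 3 SOM libraries, with 45.7%, 59.4% and 48.0% of the sum over the 10 genes. The Nkx2.1 libraries each had another leading gene: Cntn5 with 26.5% in replicate 1, Cntnap2 with 41.6% in replicate 2 and Cntn3 with 23.2% in replicate 3. In the VIP libraries Cntn1 led in replicate 1 (48.1%) and Cntn5 in replicates 2 and 3 (26.1% and 29.1%). Cntnap3 took 22.5%, 28.8% and 22.9% in the Nkx2.1 libraries and 10.2%, 13.2% and 11.1% in the SOM libraries. The level of Cntnap3 ran from 44.2 to 123 CPM per kilobase in the Nkx2.1 libraries, so a steady share there was not a steady level. Cntnap2 took 14.9%, 11.8% and 12.5% in the SOM libraries, so a narrow range there was not particular to Cntnap3. The shares of Cntnap3 also rest on the counts for which it was chosen.

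By group mean on the same scale, Cntnap3 came first in the Nkx2.1 libraries (89.3 ± 40.5 CPM per kilobase), followed by Cntnap2 (79.0 ± 86.2), Cntn1 (45.2 ± 50.9) and Cntn5 (43.8 ± 65.0). These 4 overlapped. In SOM libraries Cntn1 (139.7 ± 29.5 CPM per kilobase) lay above Cntnap2 (35.4 ± 2.74) without overlap, and Cntnap2 and Cntnap3 (31.6 ± 6.73) overlapped. The leading genes of the VIP libraries, Cntnap2, Cntn5 and Cntn1, stood at 26.9 ± 5.11, 25.9 ± 22.6 and 25.3 ± 6.81 CPM per kilobase and overlapped. The sum over the 10 genes was 193 to 448 CPM per kilobase in Nkx2.1, 235 to 306 in SOM and 67.0 to 159 in VIP libraries, so that every MGE library had more than every VIP library. Cntnap3, the gene chosen for that pattern, is part of this sum. Without it the sum was 347, 304 and 149 in the Nkx2.1, 211, 241 and 272 in the SOM and 67.0, 115 and 159 in the VIP replicates, and Nkx2.1 overlapped VIP.

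**Figure D3:**
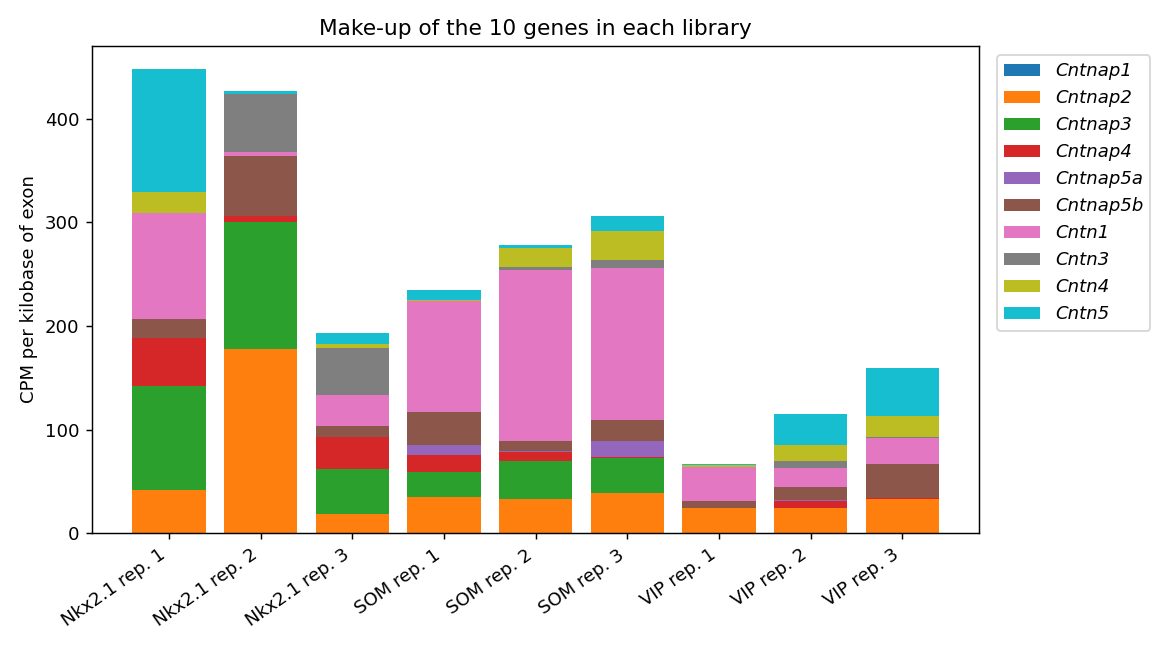
Stacked bars of CPM per kilobase of exon for the 10 genes in each of the 9 libraries. Cntn1 makes up the largest block in all 3 SOM libraries, while the largest block differs among the 3 Nkx2.1 libraries, and the VIP bars are the lowest.

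Replicates of a line differed widely in some of these genes and little in others. The pooled spread within groups had a median of 1.78 on the log2(CPM + 1) scale over the 8 tested genes other than Cntnap3 and of 1.68 over all genes tested. Cntnap3 is left out here because it was chosen for its values in the MGE and VIP libraries, which enter the pooled spread. Among the 8 it ran from 0.98 for Cntnap2 to 2.90 for Cntn4 and 3.11 for Cntn3. In the Nkx2.1 libraries the highest and lowest replicate of Cntn4 lay 7.41 apart on that scale and those of Cntn3 6.87. Cntn1 spanned 4.71 in the Nkx2.1 libraries but 0.62 in the SOM and 0.79 in the VIP libraries.

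The genes nearest to Cntnap3 in pattern were looked for among the other 10727 tested genes, as the smallest root mean square difference between centred log2(CPM + 1) profiles over the 9 libraries. The profile of Cntnap3 holds the counts for which it was chosen, so the search favours genes high in MGE and near 0 in VIP libraries. Its outcome describes that pattern and is no test. The nearest were Nxph2 (0.88), Lhx6 (0.94), Nxph1 (1.0096), Thbs1 (1.07) and Glcci1 (1.36). Nxph1 and Nxph2 encode neurexophilins, secreted ligands of neurexins, and Thbs1 a thrombospondin. In the Nkx2.1, SOM and VIP lines Nxph2 stood at 242 ± 84.4, 85.5 ± 50.5 and 0 CPM, and Nxph1 at 1199 ± 340.0, 752 ± 135 and 0 CPM. Thbs1 stood at 420.3 ± 43.8, 218 ± 230 and 0 CPM, and Glcci1 at 226 ± 55.9, 30.7 ± 13.8 and 0.315 ± 0.381 CPM. Over the 3 VIP libraries 0 reads allow up to 0.0999 CPM. Among the 11 other tested genes of the 2 families the nearest was Cntnap4, at 3.06 and rank 333, followed by Cntnap5c, at 3.37 and rank 771. The farthest were Cntn4, at 5.20 and rank 9001, and Cntn6, at 5.77 and rank 10263.

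**Figure D4:**
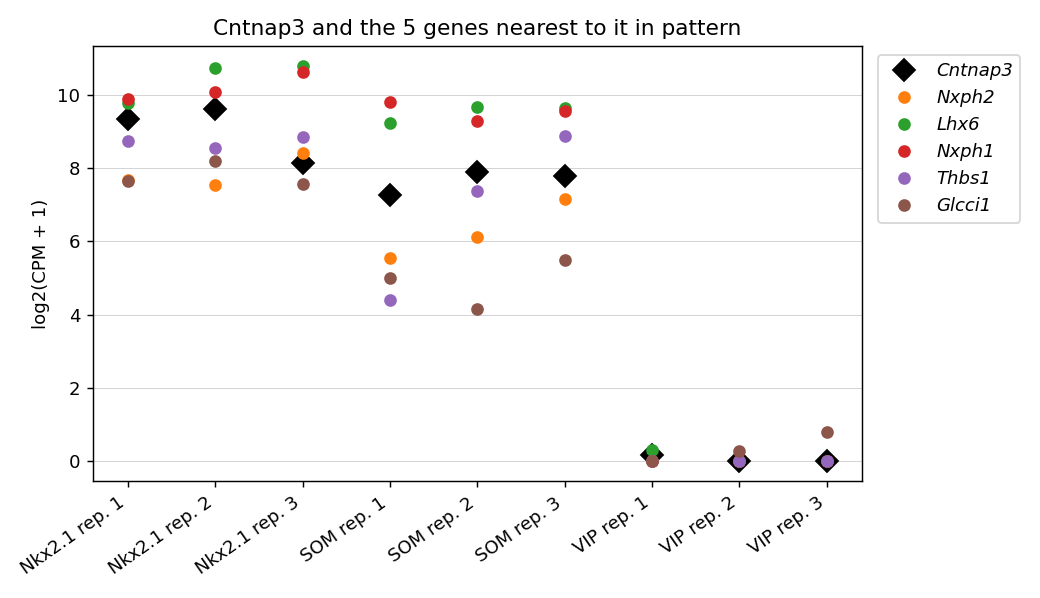
Levels of Cntnap3 (diamonds) and the 5 genes nearest to it in pattern (circles) in each of the 9 libraries, as log2(CPM + 1). All 6 genes are present in the 6 Nkx2.1 and SOM libraries and at or near 0 in the 3 VIP libraries. Cntnap3 was chosen for this pattern, and the other 5 were picked for their likeness to it.

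The 3 remaining genes of the families were read from a list kept beside the members. Cntnap5c, the third Caspr5 gene, stood at 374, 0.338 and 98.6 CPM in the Nkx2.1 replicates, 25.4, 0.888 and 97.3 CPM in those of SOM, and 0, 0 and 3.11 CPM in those of VIP. Nkx2.1 against VIP gave log2 7.21 ± 2.91 SE (edgeR adjusted p = 0.285; DESeq2 adjusted p = 0.0098). Cntn2, which encodes the partner of Caspr2, had reads in all 9 libraries, at 54.9 ± 53.2, 40.4 ± 21.7 and 17.3 ± 4.37 CPM. Cntn6 stood at 266, 0.0846 and 0 CPM in the Nkx2.1 replicates, against 117 to 422 CPM in SOM and 86.2 to 142 CPM in VIP libraries. Cntn6 was thus high in Nkx2.1 replicate 1 and near 0 in the other 2, as Cntn5 was highest in that replicate. None of the 3 passed the test in any comparison (edgeR adjusted p = 0.285 to 1.000).

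Partners of the families were taken from 3 lists, and none of their genes passed the test in any comparison. Of 12 adhesion partners 9 were tested (edgeR adjusted p = 0.172 to 1.000). The 2 with the highest mean CPM of each list follow, in the order Nkx2.1, SOM, VIP. Chl1, a relative of L1, stood at 1774 ± 439, 1912 ± 292 and 877 ± 257 CPM, and App, which encodes the amyloid precursor protein, at 242 ± 171, 582 ± 174 and 723 ± 262 CPM. App was lower in every Nkx2.1 library than in every SOM and VIP library (log2 -1.27 and -1.58, edgeR adjusted p = 0.511 and 0.294). Of all genes tested, 14% and 12.8% were lower without overlap in these comparisons. Chl1 was higher in every Nkx2.1 and every SOM library than in every VIP library (edgeR adjusted p = 0.172 and 0.354). Without overlap, 7.31% and 10.9% of all genes were higher there. Of 12 genes of the Kv1 channel complex and its LGI and ADAM proteins 9 were tested (edgeR adjusted p = 0.309 to 1.000). Adam22, a receptor of LGI proteins, stood at 974 ± 342, 463 ± 211 and 1008 ± 238 CPM, and Kcna6, a Kv1 subunit, at 39.3 ± 34.1, 176 ± 21.3 and 136 ± 131 CPM. Kcna6 was lower in every Nkx2.1 than SOM library (14% of all genes), and Adam22 in every SOM than VIP library (9%). Of 12 scaffold and anchor genes 11 were tested (edgeR adjusted p = 0.211 to 1.000). Ank3, which encodes ankyrin G, stood at 1267 ± 287, 634 ± 200.4 and 519 ± 362 CPM, and Dlg2, a scaffold of Kv1 clusters, at 454 ± 226, 649 ± 132 and 386 ± 276 CPM. Ank3 was higher in every Nkx2.1 library than in every SOM and VIP library (5.9% and 7.31% of all genes), and the groups overlapped for Dlg2.

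Epb41l3, which encodes protein 4.1B, a cytoskeletal linker of Caspr proteins, was named after its values were seen. It stood at 167 ± 46.8, 436 ± 10.0 and 62.5 ± 64.5 CPM, and its 3 groups did not overlap in any comparison. The difference of SOM from VIP was log2 2.80 (edgeR adjusted p = 0.462) and that of Nkx2.1 from SOM log2 -1.39 (edgeR adjusted p = 0.643). DESeq2 called 1 of the 29 tested genes of these lists in each comparison, where it called 7.16%, 11.8% and 3.56% of all genes. They are also named after their values were seen: L1cam in Nkx2.1 against SOM (301 ± 23.8 against 746 ± 181 CPM, DESeq2 adjusted p = 0.0379) and Dlg1 in both MGE lines against VIP, Nkx2.1 first (DESeq2 adjusted p = 0.000106 and 0.00324). Dlg1, a scaffold gene, stood at 86.2 ± 124, 40.2 ± 35.2 and 0.3002 ± 0.263 CPM, and its Nkx2.1 libraries overlapped those of VIP.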

How the data were processed

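For each library the authors deposited raw counts of reads for every gene symbol. The submitters' processing notes name TopHat2 2.0.9, DESeq2 and the build mm10 without saying what each did. Which program counted the reads, with which strand setting and annotation, is not given in the sources used here. The 5 summary entries of each table, 83.6% to 85.2% of its total, entered neither library sizes nor tests.

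All 9 libraries entered 1 fit in R 4.3.3 with edgeR 4.0.16 (quasi-likelihood test, group as the only term, TMM, filterByExpr at a minimum count of 10), with Benjamini-Hochberg adjustment over the 10728 genes kept and a threshold of 0.05. With 6 residual degrees of freedom, the common biological coefficient of variation was 1.40. DESeq2 1.42.0 was an alternative, as were RLE size factors, no filter, 2 groups alone, a replicate block and leaving out each library. CPM are TMM-scaled, with mean ± SD. Standard errors were taken as the absolute log2 fold divided by the root of F. Exon length is the union of GENCODE M21 exons.

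The members, the lists and the tests were chosen with earlier results of these data known. Named genes are the 10 members, the 3 other family genes, the 2 most abundant genes of each partner list, any that passed the test and the 5 nearest to Cntnap3. Epb41l1, Epb41l2 and Epb41l3 were matched by their older symbols in RefSeq. Protein sequences were not used here, and the values of 1 marker gene are not reported here.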

Additional observations from a re-analysis of the deposited data

How the results depend on the processing

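Of 350 fitted differences of single members under the alternatives, 336 kept their direction and their side of the threshold, 12 turned direction and 2 newly passed. The count of members that passed stayed at 0 in all 3 comparisons with RLE size factors, without a filter, with the replicate block (0) and without any 1 library (0 to 0). It was 1 in Nkx2.1 against SOM with DESeq2 (Cntnap5a) and 1 in SOM against VIP when only these 2 groups were fitted (Cntn1). The cause was not tested. With the replicate block Cntn5 in Nkx2.1 against VIP was log2 -0.64. Leaving out 1 library gave log2 -0.57 to 1.39 for Cntn1, -1.9999 to 1.48 for Cntn5 and -0.23 to 1.56 for Cntnap5b in Nkx2.1 against VIP. In Nkx2.1 against SOM it gave -0.48 to 2.87 for Cntn5, -0.25 to 1.63 for Cntnap2 and -0.47 to 0.95 for Cntnap5b. In SOM against VIP it gave -0.94 to 3.85 for Cntn3, -0.38 to 0.90 for Cntn4 and -0.22 to 1.06 for Cntnap5b. Cntnap3 against VIP ranged over all alternatives from log2 12.98 to 15.5 for Nkx2.1 and 11.5 to 13.97 for SOM, values that depend on the prior count since VIP held 1 read.

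Over all genes, calls numbered 10 (Nkx2.1 with SOM), 33 (Nkx2.1 with VIP) and 8 (SOM with VIP). They numbered 768, 1262 and 382 with DESeq2, 5, 20 and 32 in fits of 2 groups, 4, 11 and 4 with the replicate block and 0 to 37, 12 to 48 and 3 to 17 without 1 library. SOM against VIP had 21 without a filter. Deviations from the group means correlated from -0.033 to 0.064 over 9 pairs of same-numbered libraries and from -0.065 to 0.033 over 18 other pairs. The labels do not say that the numbers mark a shared litter or day, so they were not taken to pair the samples. On CPM in place of CPM per kilobase, 4, 5 and 6 of the 10 genes kept their rank in Nkx2.1, SOM and VIP libraries. With 3 libraries a group and this spread, a difference that missed the threshold is not shown to be absent.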

Other observations

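Aplp2 and Cask, partners that neurons are known to express, had 0 reads in all 9 libraries. For Aplp2, on the minus strand of chromosome 9, none of the 10 nearest counted protein-coding genes of its strand had a read, while 9 of the 10 nearest on the other strand had at least 90. For Cask, on chromosome X, none of the 10 nearest had a read on either strand. Over all 19324 protein-coding genes matched, 34.6% had no read. Cntn5 lies on the same chromosome and strand as Aplp2 but had reads in every library, while 4 of its 10 nearest genes on that strand and 8 of the 10 nearest on the other strand had no read. For the other 8 members that passed the filter, 0 to 4 of the 10 nearest had no read on the same strand and likewise 0 to 4 on the other.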
